A study of Mus musculus with 6 samples.

Results

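The genes described here are 8 outputs and accessory regulators of the circadian clock in mouse colon. They are the PAR bZIP activators Dbp, Tef and Hlf, the D-box repressor Nfil3, the E-box repressors Bhlhe40 and Bhlhe41, the CLOCK–BMAL1 repressor Ciart and the ROR-element activator Rora. They were chosen by function, but with the measured difference between the groups of these same libraries already known, so their genotype difference is given as a description, without a test of it. All 8 were among the 24517 genes listed in the count tables, and all 8 were among the 16347 genes that passed the filter on low counts.

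RNA sequencing was carried out on whole colon tissue from 2 groups of 3 libraries. Nsd2fl/fl mice (written NSD2fl/fl in the labels) carried the floxed gene for NSD2, a histone methyltransferase of lysine 36 of histone H3, and served as controls. Nsd2ΔIE mice (NSD2∆IE in the labels) carried the same floxed gene and had lost it in the intestine. Per the study's methods the deletion was made with Villin-Cre, which is active in the intestinal epithelium, on a C57BL/6J background, so muscle, nerve, immune and other cells of the colon wall kept the gene. Mice of both groups ate HFCD, a diet rich in fat and cholesterol, and the labels give 16 weeks of it, while the study's text gives a longer feeding time. The labels give no age. They call the libraries replicate samples without naming the animals, and the error terms here therefore cover the spread between these samples. The hour of tissue collection is not given in the sources used here, and whether it differed between libraries was not tested.

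Totals lay between 38041832 and 38604680 counts per library. Nsd2 had 1840 to 2455 counts in Nsd2fl/fl and 914 to 1139 counts in Nsd2ΔIE. The sex-linked genes separated the groups as well: Xist had at most 4 counts in each Nsd2fl/fl library and at least 21217 in each Nsd2ΔIE library, and the Y-linked genes had 868 to 2205 counts each in Nsd2fl/fl and at most 1 in Nsd2ΔIE. The study's methods describe male littermates. Genotype and this sex pattern cannot be told apart below. The first principal component, which took 51.0% of the variance, did not follow genotype: replicates 1 and 3 of Nsd2fl/fl lay beside replicate 1 of Nsd2ΔIE, and the other libraries, from both groups, lay on the opposite side. The 9 epithelial markers summed to 11028 to 26415 CPM (reads per fixed library total, after TMM scaling) in Nsd2fl/fl and to 12630 to 19696 CPM in Nsd2ΔIE, and none was at 0 in all libraries. Car1 alone gave 188 to 7837 CPM of these sums in Nsd2fl/fl and 723 to 8057 CPM in Nsd2ΔIE.

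In the mammalian clock, CLOCK and its partners BMAL1 (gene Arntl) or NPAS2 activate transcription from E-boxes, and the period and cryptochrome proteins repress them in turn. DBP, TEF and HLF are proline- and acid-rich basic leucine zipper (PAR bZIP) proteins that pass this rhythm on by activating genes with D-boxes, among them genes of drug and vitamin metabolism. NFIL3, also called E4BP4, binds the same D-boxes and represses, and in the gut it is known for regulating epithelial lipid uptake and for the development of innate lymphoid cells. BHLHE40 and BHLHE41 (DEC1 and DEC2) compete at E-boxes, CIART (CHRONO) represses CLOCK–BMAL1 directly, and RORA activates Arntl from elements that REV-ERB proteins silence.

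The starts of these genes were examined for the elements through which the loop is wired, and 5 stretches are printed here because they hold every type of match found among the members. Windows of 250 bases before each RefSeq start (build GRCm38.p6) were read for 7 of the 8 genes, with 2 starts for Tef. Bhlhe40 had no entry. Sequences run 5′ to 3′ on the strand of the gene, with the matched element in capitals. In the first 3 lines the capitals mark the E-box CACGTG. In the Hlf line they mark the cAMP-response element TGACGTCA, and in the Nfil3 line the ROR element TAGGTCA, which lies on the opposite strand and is therefore read in reverse complement.
Ciart: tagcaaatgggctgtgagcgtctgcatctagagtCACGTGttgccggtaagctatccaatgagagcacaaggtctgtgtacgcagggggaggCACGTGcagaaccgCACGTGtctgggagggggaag
Tef: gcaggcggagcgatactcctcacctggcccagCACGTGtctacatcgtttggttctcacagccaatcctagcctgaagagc
Bhlhe41: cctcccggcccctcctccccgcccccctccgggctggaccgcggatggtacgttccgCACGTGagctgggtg
Hlf: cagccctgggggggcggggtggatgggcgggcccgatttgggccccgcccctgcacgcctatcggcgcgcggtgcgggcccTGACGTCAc
Nfil3: gcgcggcgctcggaacTGACCTActaac

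These stretches are chr3:95882252-95882378 on the minus strand for Ciart, chr15:81811244-81811324 on the plus strand for the second Tef start, chr6:145865559-145865630 on the minus strand for Bhlhe41, chr11:90390918-90391007 on the minus strand for Hlf and chr13:52981040-52981067 on the minus strand for Nfil3. The first 4 overlap no GENCODE exon, and the Nfil3 stretch lies within a GENCODE exon of that gene. For Ciart and Bhlhe41 this follows from the cut, since the printed stretches leave out the 23 and 138 exon bases of their windows. Ciart held 3 E-boxes in 1 window. The E-box was found in 4 of the 8 member windows, at both Tef starts, Bhlhe41 and Ciart, beside 6.02% of the 32851 promoters of that length in the table. The letters CACGTT, which share 5 bases with the E-box, were in 0 of the 8 windows beside 3.85% of all. The D-box forms TTACGTAA, TTATGTAA and TTATGCAA were in 0 of the 8 windows, beside 0.113%, 0.819% and 0.694% of all promoters. TAGGTCA was in the Nfil3 window alone (2.23% of all), TGGGTCA in none (3.24% of all) and TGACGTCA in the Hlf window alone (1.55% of all). All motifs were read on both strands. The member windows were 60.4% to 81.6% G and C, against a median of 52.4% over all promoters. The windows of Dbp and Rora held no match, which says only that these letters are not in those 250 bases. By GENCODE, Dbp exons cover 159 bases of the Dbp window. Tef exons cover all 250 bases of the window at the first Tef start, its E-box included. A match describes the sequence and is not evidence of binding in these libraries.

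**Figure D1:**
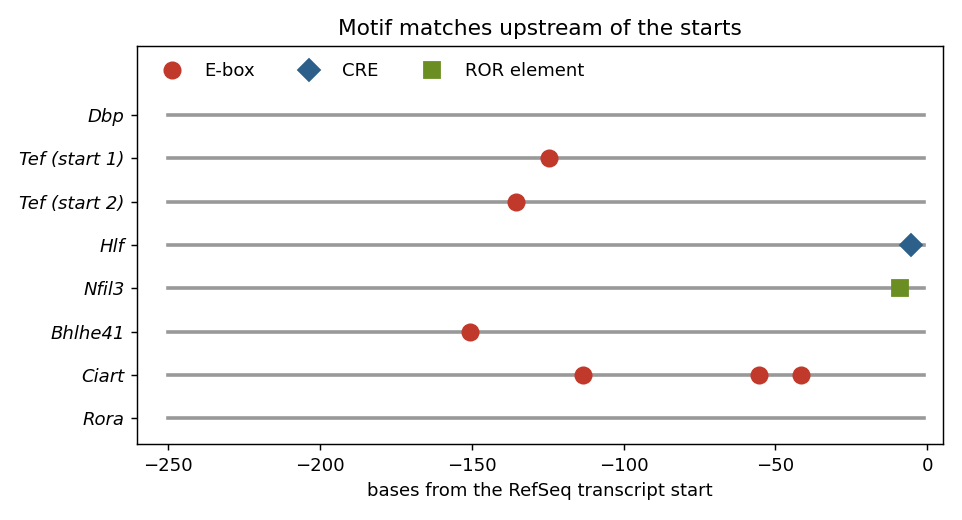
Motif matches in the windows before the RefSeq starts, with the distance from the start in bases on the horizontal axis and 1 line per window. Red circles are E-boxes, the blue diamond is the cAMP-response element of Hlf and the green square is the ROR element of Nfil3. Ciart carries 3 E-boxes, and the windows of Dbp and Rora are empty.

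Compared by genotype, 6 of the 8 genes were higher and 2 were lower in Nsd2ΔIE. Their median log2 fold change was 0.65 against -0.04 over all genes tested. The PAR bZIP genes were 1.49-fold to 2.07-fold higher, Ciart 1.67-fold, Bhlhe41 1.57-fold and Rora 1.56-fold, and the opposing D-box factor Nfil3 stood at 0.525 of its control mean. Of the 8 genes, 0 reached an adjusted p under 0.05 in edgeR's quasi-likelihood test, beside 0.0306% of all genes tested. That share is 5 genes, namely Xist and the 4 Y-linked genes of the label check. Nsd2 itself had an adjusted p of 0.302 in this test. At an unadjusted p under 0.05, 4 passed, beside 11.1% of all genes. They were Hlf, Bhlhe41 and Rora on the higher side, beside 8.15% of genes, and Nfil3 on the lower side, beside 2.96%. In DESeq2's Wald test 1 member, Hlf, had an adjusted p under 0.05, beside 2.91% of genes. The values of 5 members (Tef, Hlf, Bhlhe41, Ciart and Rora) lay wholly above the control values, beside 11.4% of genes, and 0 lay wholly below, beside 7.28%. Because the members were chosen with this contrast known, nothing is read from these shares. In bulk tissue, fewer cells of a type and less RNA per cell cannot be told apart.

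**Figure D2:**
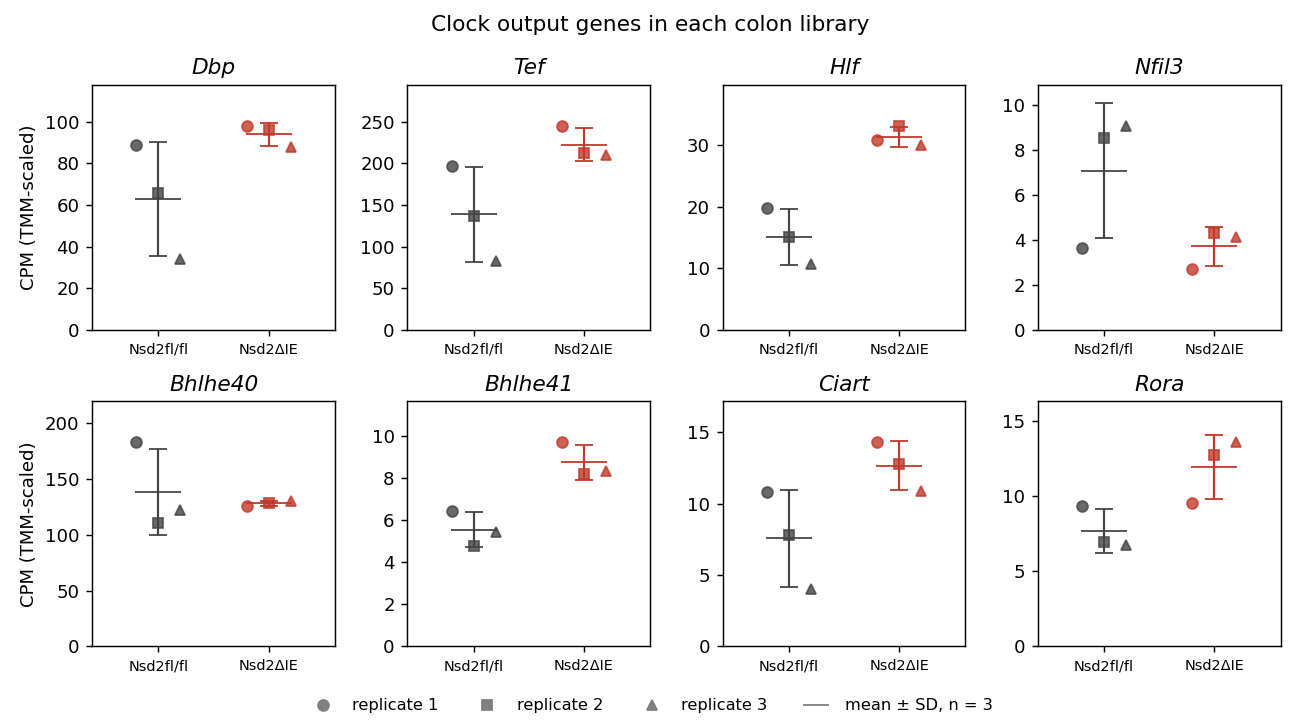
Level of each clock output gene in CPM (TMM-scaled, axes from 0) by group. Symbols are the 3 replicates, and bars are the mean ± SD of 3 libraries. Dbp, Tef and Ciart fall into wide control groups and narrow Nsd2ΔIE groups, and Nfil3 is lower in Nsd2ΔIE apart from Nsd2fl/fl replicate 1.

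Hlf, the PAR bZIP factor best known from liver, kidney and brain, had the largest difference of the members. Its counts were 761, 534 and 379 in Nsd2fl/fl replicates 1 to 3 and 1223, 1316 and 1248 in Nsd2ΔIE replicates 1 to 3. That is 15.2 ± 4.56 CPM against 31.4 ± 1.63 CPM (SD, n = 3 in each group), with 1.05 (SE 0.223) as the log2 fold change. Every Nsd2ΔIE library lay above every control, with 30.1 CPM as the lowest against 19.8 CPM as the highest. The gene lies at chr11:90336536-90390895 on the minus strand (GENCODE, GRCm38).

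Tef, the thyrotroph embryonic factor, had the highest mean CPM of the members. It had 7602, 4824 and 2970 counts in Nsd2fl/fl and 9723, 8426 and 8723 counts in Nsd2ΔIE, or 197, 136 and 83.4 CPM against 245, 213 and 210.3 CPM. The means were 139 ± 57.1 and 223 ± 19.6 CPM, with a log2 fold change of 0.68 (SE 0.295). The groups did not overlap, although Nsd2fl/fl replicate 1 reached 197 CPM, close to the lowest Nsd2ΔIE value. Tef spans chr15:81802421-81826863 on the plus strand, and both of its RefSeq starts carry an E-box in the windows described above.

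Dbp, the D-box binding protein and the classical strongly rhythmic member of the family, had 3423, 2323 and 1211 counts in Nsd2fl/fl and 3883, 3806 and 3634 in Nsd2ΔIE. In CPM these were 88.9, 65.6 and 34.0 against 98.0, 96.0 and 87.6, with means of 62.8 ± 27.6 and 93.9 ± 5.52 and a log2 fold change of 0.58 (SE 0.317). The groups overlapped, since Nsd2fl/fl replicate 1 lay above Nsd2ΔIE replicate 3. The 2.61-fold range within the controls was wider than the 1.49-fold difference between the group means. Dbp, at chr7:45705088-45710203 on the plus strand, shares 539 exon bases, 18% of its exons, with Sphk2 on the opposite strand. Sphk2 had 2663 to 3043 counts in every library. Whether counting used strand is not given in the sources used here, so reads of the shared bases cannot be told apart.

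Without Nsd2fl/fl replicate 1 the log2 fold change of Dbp was 0.91, and without Nsd2fl/fl replicate 3 it was 0.28. The same libraries moved Tef between 1.02 and 0.42, Ciart between 1.09 and 0.44 and Hlf between 1.28 and 0.85. The difference in this group of genes thus depended in size, and not in sign, on which control was kept.

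Nfil3, the repressor that binds the sites of the PAR bZIP proteins, ran the other way. It had 140, 302 and 323 counts in Nsd2fl/fl and 107, 170 and 172 counts in Nsd2ΔIE, or 3.64, 8.53 and 9.07 CPM against 2.70, 4.29 and 4.15 CPM. The means were 7.08 ± 2.99 and 3.71 ± 0.879 CPM, a log2 fold change of -0.93 (SE 0.385). Nsd2fl/fl replicate 1 lay among the Nsd2ΔIE libraries and the other controls lay above all of them, and without that library the log2 fold change was -1.25. Nfil3 lies at chr13:52967209-52981073 on the minus strand. Innate lymphoid cells, which need NFIL3, were followed by 6 markers that summed to 12.6 to 17.3 CPM in Nsd2fl/fl and 14.8 to 21.5 CPM in Nsd2ΔIE, ranges that overlap. Areg, the only marker that was lower, gave the largest part of the sums, with means of 8.86 and 7.73 CPM. The other 5 were higher, as were 7145 of all 16347 genes tested. Of the 6 markers 1 passed an unadjusted p under 0.05 on the higher side, beside 8.15% of all genes.

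The E-box repressors differed from each other. Bhlhe41 (DEC2) had 249, 169 and 194 counts in Nsd2fl/fl and 385, 325 and 347 in Nsd2ΔIE, with means of 5.56 ± 0.851 and 8.76 ± 0.830 CPM. Its log2 fold change was 0.65 (SE 0.185), and no value overlapped. Bhlhe40 (DEC1), a gene that also answers to hypoxia and immune signals, had 7044, 3929 and 4341 counts in Nsd2fl/fl and 4984, 5087 and 5403 in Nsd2ΔIE. Its means of 139 ± 38.8 and 128 ± 2.25 CPM gave a log2 fold change of -0.11 (SE 0.196). The highest and the lowest Bhlhe40 values were both controls, at 183 and 111 CPM, and the Nsd2ΔIE values lay between them, from 126 to 130.2 CPM. The sign for Bhlhe40 was not stable: without Nsd2fl/fl replicate 1 the log2 fold change was 0.13.

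Bhlhe40 lies at chr6:108660629-108666925 on the plus strand and Bhlhe41 at chr6:145858243-145865558 on the minus strand. The annotation places Gm43909 opposite 19% of the Bhlhe41 exon bases, and this gene had no entry under that name among the genes listed. The ratio of Bhlhe41 to Bhlhe40 in FPKM (reads scaled to length and library total) was 0.0180, 0.0219 and 0.0227 in Nsd2fl/fl against 0.0393, 0.0325 and 0.0326 in Nsd2ΔIE. Within each library, then, the balance between the E-box repressors stood higher for Bhlhe41 in Nsd2ΔIE, without overlap and without a scaling factor entering the ratio.

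Ciart, the gene with 3 E-boxes before its start, had 417, 277 and 144 counts in Nsd2fl/fl and 567, 507 and 451 in Nsd2ΔIE. The means were 7.57 ± 3.40 and 12.7 ± 1.72 CPM, and the log2 fold change was 0.74 (SE 0.347). The groups were separate only by a margin, with 10.83 CPM in Nsd2fl/fl replicate 1 and 10.87 CPM in Nsd2ΔIE replicate 3. Ciart lies at chr3:95878503-95882251 on the minus strand.

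Rora, the nuclear receptor that drives Arntl from ROR elements, had 359, 246 and 240 counts in Nsd2fl/fl and 377, 504 and 563 in Nsd2ΔIE. Its means were 7.67 ± 1.43 and 11.9 ± 2.14 CPM, with a log2 fold change of 0.64 (SE 0.213). The margin was again narrow, between 9.32 CPM in Nsd2fl/fl replicate 1 and 9.51 CPM in Nsd2ΔIE replicate 1, and the other Nsd2ΔIE libraries stood higher, at 12.7 and 13.6 CPM. Rora is a long gene at chr9:68653786-69388246 on the plus strand.

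Ordered by level per length, Bhlhe40 was the highest member at 43.0 ± 14.4 FPKM in Nsd2fl/fl and 43.0 ± 1.92 FPKM in Nsd2ΔIE. Dbp followed at 24.0 ± 11.5 and 38.7 ± 1.23 FPKM, and Tef at 19.3 ± 8.78 and 33.3 ± 2.52 FPKM. In the controls the values of Bhlhe40 and Dbp overlapped, as did those of Dbp and Tef, while Bhlhe40 lay above Tef without overlap. Ciart (3.06 ± 1.5 and 5.51 ± 0.621 FPKM) and Hlf (2.46 ± 0.852 and 5.51 ± 0.203 FPKM) came next, and they could not be separated in either group. Nfil3 stood above Bhlhe41 in Nsd2fl/fl, at 1.5 ± 0.587 against 0.874 ± 0.178 FPKM, and below it in Nsd2ΔIE, at 0.871 ± 0.215 against 1.49 ± 0.129 FPKM. Rora was the lowest at 0.143 ± 0.0343 and 0.241 ± 0.0480 FPKM. The deposited counts and FPKM imply a length of 51763 bases for Rora, against 13071 exon bases in GENCODE. With GENCODE lengths Rora was still the lowest member, at 0.565 and 0.956, while Nfil3 at 3.30 stood level with Ciart at 3.24 in Nsd2fl/fl. Other ranks changed with these lengths: Nfil3 was above Bhlhe41 in both groups, at 3.30 against 0.796 and 1.92 against 1.36, and Bhlhe40 in Nsd2ΔIE, at 28.5, was below Dbp at 32.7 and Tef at 29.6.

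The libraries of a group did not share 1 level of clock output. Among the controls, Dbp, Tef, Hlf, Ciart and Rora were all highest in the library labelled replicate 1 and lowest in that labelled replicate 3, and Nfil3 was lowest in the first and highest in the latter. The range within the Nsd2fl/fl group was 2.61-fold for Dbp, 2.37-fold for Tef, 1.86-fold for Hlf, 2.68-fold for Ciart, 2.49-fold for Nfil3 and 1.38-fold for Rora. Within Nsd2ΔIE it was 1.12-fold for Dbp, 1.17-fold for Tef, 1.10-fold for Hlf, 1.32-fold for Ciart, 1.59-fold for Nfil3 and 1.43-fold for Rora, which alone of these varied slightly more in Nsd2ΔIE. On the log2 CPM scale the control ranges of Dbp, Tef, Nfil3 and Ciart (1.38, 1.24, 1.31 and 1.41), Hlf (0.89) and Bhlhe40 (0.72) lay above the median of 0.54 over all genes tested, and those of Bhlhe41 (0.43) and Rora (0.47) under it. The Nsd2ΔIE ranges of Dbp, Tef, Hlf, Bhlhe40 and Bhlhe41 (0.16, 0.22, 0.14, 0.05 and 0.24) lay under the median of 0.33, and those of Nfil3 (0.66), Ciart (0.39) and Rora (0.51) above it. The difference in range between the groups was not tested.

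**Figure D3:**
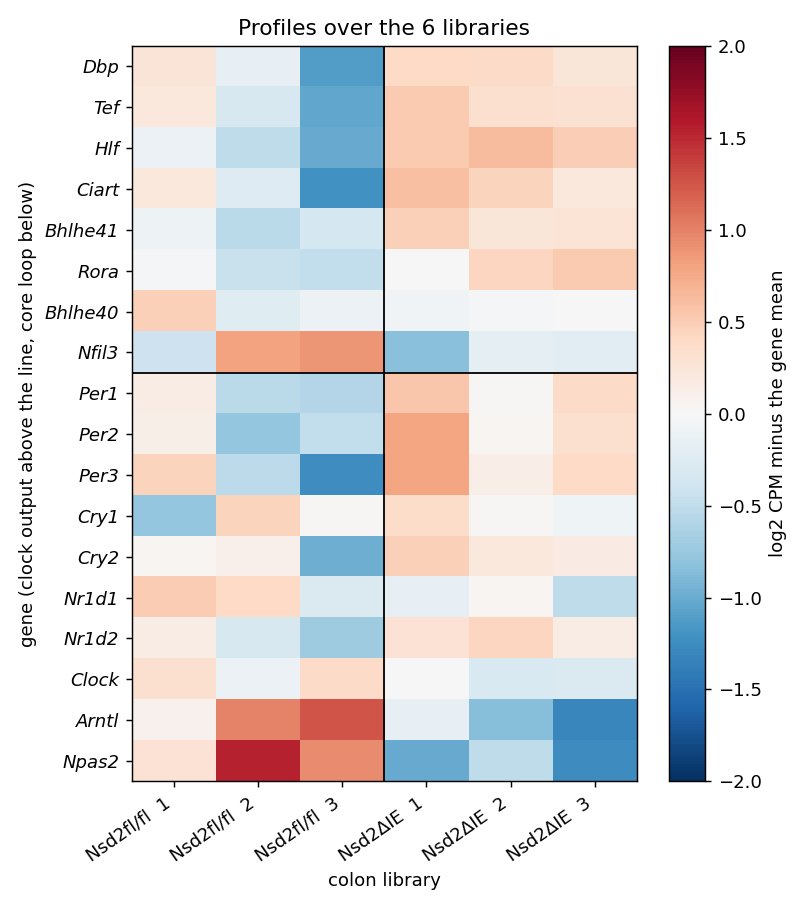
Log2 CPM minus the mean of each gene (color, from -2 to 2) in the 6 colon libraries, with the clock output genes above the line and the core loop below. The rows of Dbp, Tef and Ciart are alike, with Nsd2fl/fl replicate 3 farthest from the Nsd2ΔIE libraries, and Nfil3, Arntl and Npas2 are higher in most controls than in Nsd2ΔIE.

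Dbp, Tef and Ciart shared nearly the same profile over the 6 libraries. After centring each gene, their log2 CPM profiles differed by a root mean square of 0.0953 for Dbp and Tef, 0.103 for Dbp and Ciart and 0.104 for Tef and Ciart. Hlf was farther from them, at 0.213 to 0.261, and Bhlhe41 and Rora were 0.244 apart. Nfil3 differed from every other member by 0.770 to 1.2. These distances are descriptions over 6 libraries that share the genotype difference.

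Of genes outside the 8, the closest profile to Tef was that of Prrt2, at 0.0758, followed by Pde8b and Oplah. Prrt2 was also among the 3 closest to Dbp, at 0.125, where the others were the predicted genes Gm46301 and Gm13778, and Gm46301 had at most 12 counts in a library. Hlf was most like Tram1l1, Abca8a and Armcx4, with distances of 0.0789 to 0.0962. Abca8a had 23.2, 16.7 and 13.7 CPM in Nsd2fl/fl and 35.04, 40.1 and 38.5 CPM in Nsd2ΔIE. Nfil3 was most like Sh3kbp1 at 0.130, Hsph1, a heat shock protein gene, at 0.162 and Eme1 at 0.184. The closest to Ciart were Gm13861, Pclo and Gm46301, to Bhlhe41 Chst14, Ypel4 and Gstt1, and to Rora Fgd1, Cyp2j9 and Cnrip1. Bhlhe40 varied by less than 1 on the log2 scale over the 6 libraries and was not matched.

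Ratios within a library remove the library total from the comparison. Dbp over Nfil3, activator over repressor of the same D-box, was 43.1, 13.6 and 6.62 in Nsd2fl/fl against 64.0, 39.5 and 37.3 in Nsd2ΔIE, a 9.68-fold range over the 6 libraries. Nsd2fl/fl replicate 1 lay inside the Nsd2ΔIE range. Hlf over Nfil3 was 4.08, 1.33 and 0.881 against 8.58, 5.81 and 5.45, and here the groups did not overlap. Dbp over Arntl, an E-box output over an activator of that element, was 39.4, 15.4 and 6.68 against 51.4, 81.7 and 102.2, a 15.3-fold range without overlap. Ciart over Arntl was 5.07, 1.95 and 0.839 against 7.94, 11.5 and 13.4. Dbp over Tef stayed between 1.10 and 1.33 in all libraries, a 1.21-fold range. Dbp and Tef thus kept nearly the same ratio in libraries whose Dbp to Arntl ratio spread widely.

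**Figure D4:**
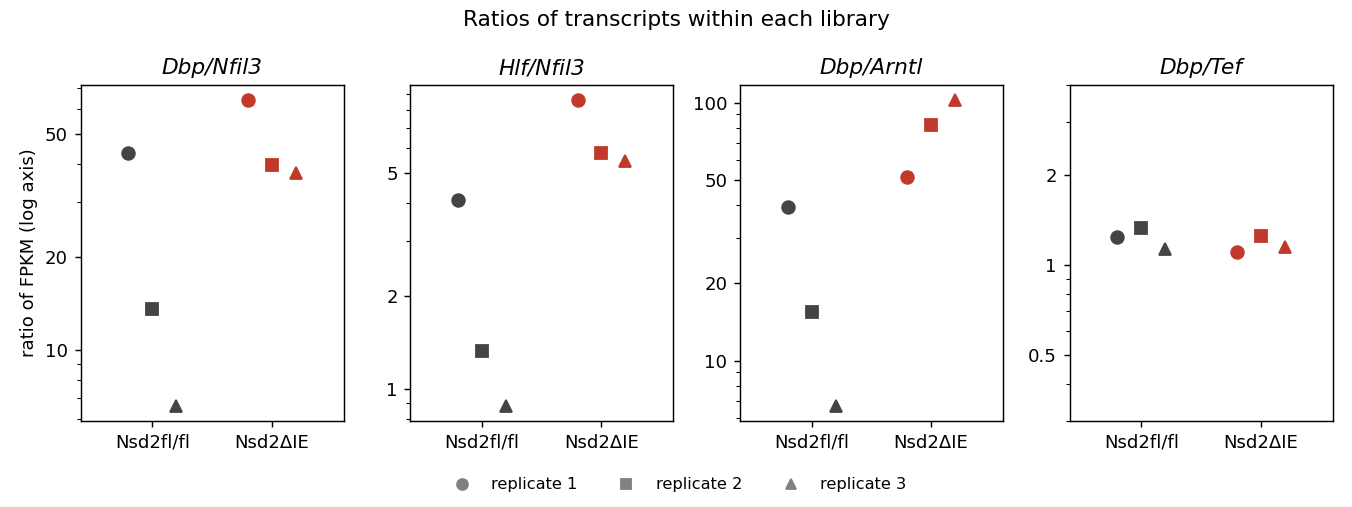
Ratios of FPKM within each library on log axes, by group, with symbols for the 3 replicates. Dbp over Tef spans 1.21-fold over all libraries, while Dbp over Arntl spans 15.3-fold and has no overlap between the groups.

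In the core loop, the activators Arntl and Npas2 were lower in Nsd2ΔIE, where most output genes were higher. Of 5 listed activators 4 were tested, and 3 of these passed an unadjusted p under 0.05 on the lower side, beside 2.96% of all genes. Arntl had 17.2, 32.4 and 38.8 CPM in Nsd2fl/fl and 14.5, 8.96 and 6.53 CPM in Nsd2ΔIE, with a log2 fold change of -1.56 (SE 0.391). Npas2 had 15.8, 37.7 and 24.9 CPM against 6.38, 9.03 and 5.38 CPM, with -1.91 (SE 0.355). Neither overlapped between the groups. Clock differed by -0.39 (SE 0.165), and Rorb had too few counts to test.

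Of the 7 core repressors, 3 passed the same threshold on the higher side, beside 8.15% of genes. They were Per1 at 0.62 (SE 0.238), Per2 at 0.75 (SE 0.281) and Nr1d2 at 0.55 (SE 0.218). Per3 was 0.74 (SE 0.414), Cry2 0.50 (SE 0.281), Cry1 0.14 (SE 0.306) and Nr1d1, which encodes REV-ERBα, -0.44 (SE 0.239) on the log2 scale. The median log2 fold change over the repressors was 0.55. None of the core genes had an adjusted p under 0.05 in edgeR, and in DESeq2 2 activators and 0 repressors did, beside 2.91% of genes. The 6 kinases and ligases that set the stability of clock proteins had log2 fold changes from -0.20 to 0.49, with 0 past the unadjusted threshold, 0 past the adjusted one in edgeR and 0 in DESeq2.

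**Figure D5:**
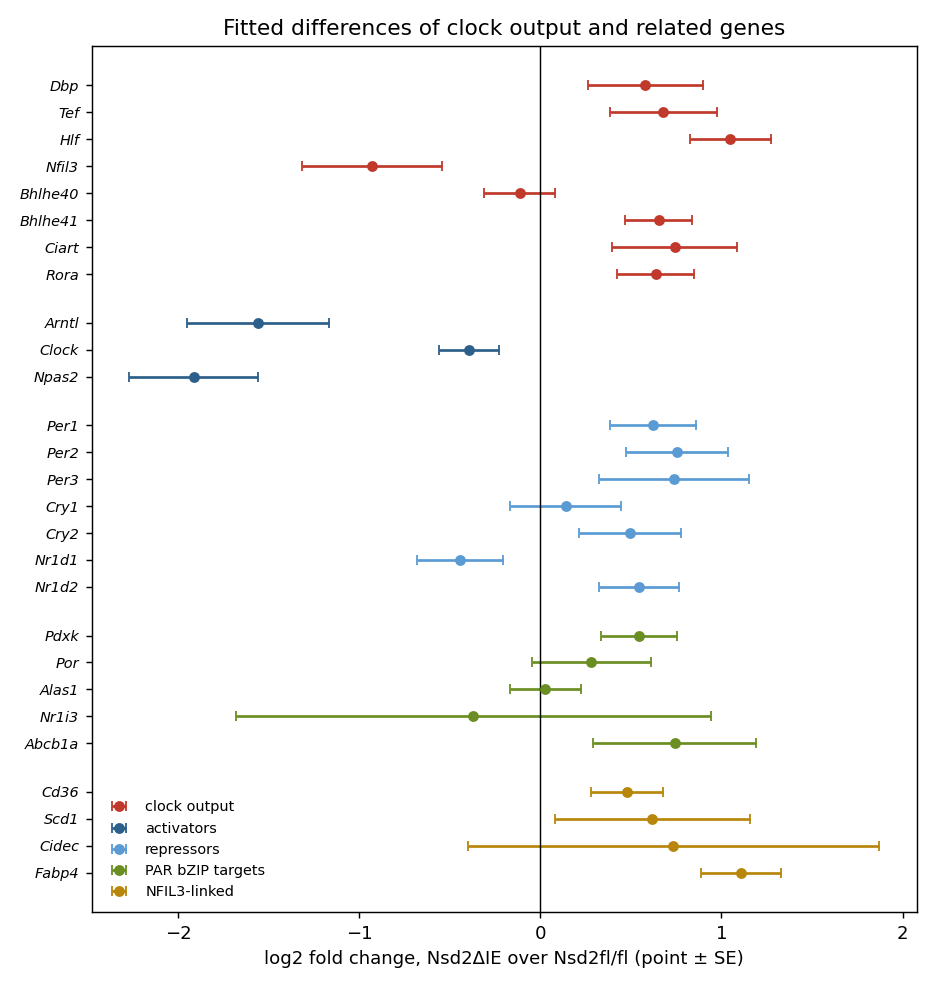
Log2 fold change of Nsd2ΔIE over Nsd2fl/fl (points, with the SE as bars) for the clock output genes, the activators and repressors of the core loop, known PAR bZIP target genes and lipid genes linked to NFIL3. Hlf has the largest value among the outputs at 1.05, Nfil3 lies at -0.93, and Arntl and Npas2 lie lowest at -1.56 and -1.91.

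Of 8 genes known from other tissues as PAR bZIP targets, 5 were tested. Of these 1, Pdxk, passed an unadjusted p under 0.05 on the higher side, beside 8.15% of all genes. Pdxk, pyridoxal kinase, had 66.27, 42.5 and 46.7 CPM in Nsd2fl/fl and 91.8, 68.9 and 66.31 CPM in Nsd2ΔIE, a log2 fold change of 0.55 (SE 0.210) with a margin as narrow as that of Ciart. Por was 0.28 (SE 0.327), Alas1 0.03 (SE 0.194), Abcb1a 0.74 (SE 0.451) and Nr1i3 -0.37 (SE 1.31) on the log2 scale. Cyp2b10 had at most 1 count per library, and Cyp2a4 and Cyp2a5 had no entry under these names among the genes listed. None had an adjusted p under 0.05 in edgeR or in DESeq2. Where Dbp, Tef and Hlf were higher, 4 of the 5 tested targets had a higher value, as had 7145 of all 16347 genes tested. For Por, Alas1 and Nr1i3 the error was as large as the difference or larger.

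All 4 lipid genes linked to NFIL3 in gut epithelium were higher in Nsd2ΔIE, as were 7145 of all 16347 genes tested. Any tie between these values and the lower Nfil3 transcript was not tested. Cd36, a fatty acid transporter, was 0.48 (SE 0.20) and Fabp4, a fatty acid binding protein, 1.11 (SE 0.222) on the log2 scale, and these passed an unadjusted p under 0.05, beside 8.15% of genes. Scd1 was 0.62 (SE 0.537) and Cidec 0.73 (SE 1.14), where the error was larger than the difference. For lipid absorption genes, Cd36 among them, the study reported no significant abnormality in colon mRNA of Nsd2ΔIE mice. Fabp4 is also a fat cell gene: its mean was 13.2 CPM in the controls and 28.5 CPM after the deletion, while the 6 fat cell markers, Cidec among them, summed to 1.58 to 18.6 CPM against 13.5 to 50.4 CPM. The control sum of 18.6 CPM, in Nsd2fl/fl replicate 2, was almost all Cidec, at 18.59 CPM. Adipoq, Retn and Cfd lay wholly above the control values in Nsd2ΔIE, beside 11.4% of genes, while Plin1 and Cidec overlapped. Adipoq, a defining marker of fat cells, was at 0 in Nsd2fl/fl replicate 2 and reached 10.3 CPM in Nsd2ΔIE replicate 3. The part of fat tissue in these lipid gene values was not tested. None had an adjusted p under 0.05 in edgeR, and 1 had one in DESeq2, beside 2.91% of genes there.

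Among 8 further genes with a strong daily rhythm in many tissues, 5 passed an unadjusted p under 0.05 on the higher side, beside 8.15% of genes. The same 5 lay wholly above the control values, beside 11.4% of genes. They were Usp2 at 0.80 (SE 0.210), Tspan4 at 0.59 (SE 0.169), Pim3 at 0.47 (SE 0.127), Wee1 at 0.41 (SE 0.106) and Cirbp at 0.36 (SE 0.115). Usp2, a deubiquitinase gene with a rhythm close to that of Dbp in many tissues, had 39.3, 24.8 and 23.1 CPM in Nsd2fl/fl and 52.8, 50.01 and 49.2 CPM in Nsd2ΔIE. Nampt was -0.03 (SE 0.117), Rbm3 -0.31 (SE 0.196) and Tsc22d3 0.18 (SE 0.153). None had an adjusted p under 0.05 in edgeR, against 2 in DESeq2, beside 2.91% of genes there.

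Markers of the colon wall moved with the same contrast. The 8 smooth muscle markers summed to 4353, 1577 and 4378 CPM in Nsd2fl/fl and 5430, 7341 and 11689 CPM in Nsd2ΔIE, and 7 of the 8 passed an unadjusted p under 0.05 on the higher side, beside 8.15% of all genes (11.1% in either direction). The 7 enteric neuron markers summed to 52.0 to 98.5 CPM against 123 to 155 CPM, with 7 of 7 past that threshold, and the 4 glial markers to 12.4 to 17.0 CPM against 24.0 to 37.6 CPM, with 4 of 4. Of the other lists, 0 of 9 epithelial, 0 of 5 endothelial and 0 of 5 T cell markers passed it. Of the 9 epithelial markers 7 were lower in Nsd2ΔIE, as were 9202 of all 16347 genes tested. Epcam (0.83-fold) and Cdh1 (0.75-fold) lay wholly below the control values, beside 7.28% of genes. Of 6 B and plasma cell and 5 macrophage markers, 0 passed it. It was passed by 2 of 5 fibroblast, 2 of 5 tested fat cell and 1 of 6 innate lymphoid markers. The 6 B and plasma cell markers had log2 fold changes from -1.02 to -0.51. No gene of these lists had an adjusted p under 0.05 in edgeR. In DESeq2 2 muscle, 3 neuron, 3 glial, 1 fat cell and 1 fibroblast marker did, beside 2.91% of genes. The part of muscle, nerve and glia in the clock output values was not tested.

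In Nsd2fl/fl replicates 1 to 3 the muscle marker sums were 4353, 1577 and 4378 CPM, and Dbp had 88.9, 65.6 and 34.0 CPM. Whether the muscle sums and Dbp go together was not tested. Within the sets of libraries that lay on the same side of the first principal component, the log2 difference between the groups was 0.83 and 0.48 for Dbp, 0.93 and 0.63 for Tef, 1.09 and 1.06 for Hlf, 1.10 and 0.59 for Ciart and 0.71 and 0.79 for Bhlhe41. For Nfil3 it was -1.08 and -1.01. Rora differed by 0.26 in the set of replicate 1 of Nsd2ΔIE and by 0.91 in the other, and Bhlhe40 by -0.25 and 0.22. Each set holds 3 libraries. The first value of each pair rests on replicate 1 as the only Nsd2ΔIE library, and the second on replicate 2 as the only control. These values carry no test.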

How the data were processed

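Colon RNA was sequenced in 3 Nsd2fl/fl and 3 Nsd2ΔIE libraries. The authors deposited whole-number read counts per gene and FPKM values derived from the same counts. The submitters' processing notes name fastp, HISAT2, HTSeq, R 3.2.0 and mm10. Roles, annotation and strand are not given in the sources used here. Groups follow the labels, and all libraries entered. Counts were compared with edgeR 4.0.16 in R 4.3.3 (filterByExpr, TMM, glmQLFTest, two-sided) without covariates, and p-values were adjusted by Benjamini-Hochberg over the 16347 genes tested. Errors of log2 fold changes are the change divided by the square root of F. Log2 CPM used a prior count of 2. The fit was tested on simulated counts. The alternatives were other scalings, no filter, DESeq2 1.42.0, limma 3.58.1 on voom and on log2(FPKM + 1 or 0.1), a replicate block, a principal component covariate and leaving out each library.

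The members and gene lists were chosen with earlier results of these data known. The genes named are the members, their pathway lists, the label checks and, for each member spanning at least 1 on the log2 scale, the 3 genes with the closest centred profile. Pairs of libraries differed by at least 35.5 times the sampling noise (chi-square per degree of freedom), so all were kept as separate. Totals were 38041832 to 38604680 counts, at which a count of 0 allows under 0.1 CPM, a limit that covers counting error only. Loci came from GENCODE and promoters from RefSeq, both on GRCm38, which is the build mm10. The values of 1 core loop gene are not reported here, although counts over its list include it. DESeq2 gave an adjusted p for 16016 genes.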

Additional observations from a re-analysis of the deposited data

How the results depend on the processing

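Over the 16 alternatives, each of the 8 genes other than Bhlhe40 kept its sign. On log2(FPKM + 1), which understates low genes, Rora was 0.12 against 0.64 and Nfil3 -0.39 against -0.93. Bhlhe40 was 8.67e-06 with library totals alone, 0.047 on log2(FPKM + 1), 0.049 on log2(FPKM + 0.1) and -0.25 to 0.13 with 1 library left out. Library totals moved the median of all genes by 0.13, from -0.04 to 0.09, and log2(FPKM + 1) and log2(FPKM + 0.1) moved it by 0.10 and 0.14. Relative to that median Bhlhe40 stayed lower, at -0.09, -0.01 and -0.05. Hlf and Bhlhe41 had an unadjusted p under 0.05 in all 16, Tef and Rora in 10, Nfil3 and Ciart in 6, Dbp in 3 and Bhlhe40 in 0. The cause was not tested.

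At an adjusted p under 0.05, DESeq2 called 1 member, Hlf (adjusted p of 0.00501), and 466 genes. In edgeR 0 members and 5 genes passed, and these 5 were the sex-linked genes. Leaving out 1 library gave 0 members and 3 to 5 genes in edgeR, with 3 without Nsd2fl/fl replicate 1 or 3. The members past an unadjusted p under 0.05 were 4, and 2 to 7 with 1 library left out. There were 7 without Nsd2fl/fl replicate 1, beside 16.1% of all genes, and 2 without Nsd2fl/fl replicate 2 or 3 or Nsd2ΔIE replicate 2 or 3, beside 13.2%, 9.08%, 6.04% and 4.94%. Members without overlap numbered 4 to 8 with 1 library left out, and were 8 without Nsd2fl/fl replicate 1, beside 35.8% of genes. They were 4 without Nsd2fl/fl replicate 2 or 3 or Nsd2ΔIE replicate 1, beside 32.2%, 28.4% and 32.4%. Core loop genes past the unadjusted p numbered 6, and 2 to 6 with 1 library left out, with 3 without Nsd2fl/fl replicate 2 or 3 or Nsd2ΔIE replicate 1 and 2 without Nsd2ΔIE replicate 3.

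With the replicate block, 7 members and 10 core loop genes passed the unadjusted p, beside 13.7% of all genes, and 0 members the adjusted one. The labels do not say that the numbers pair animals. Deviations of same-numbered libraries correlated at 0.501, 0.643 and -0.166, so the block was not used for a comparison. No alternative varied the depth, and its part in these counts was not tested.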
